A study of Mus musculus with 24 samples.

Results

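Adipokines are proteins that fat cells release into the blood or the surrounding tissue, and 8 genes that encode such proteins or are counted with them (Adipoq, Lep, Cfd, Retn, Rbp4, Nampt, Rarres2 and Apln) were followed here through all groups of a mouse fat cell culture experiment. The genes were chosen by name. All 8 were found among the 37310 genes of the expression tables, and all 8 were among the 14095 genes tested. Cells of the stromal vascular fraction, the non-adipocyte fraction of fat that contains the preadipocytes, came from inguinal white adipose tissue (WAT) or interscapular brown adipose tissue (BAT) of C57BL/6 mice at 6 weeks of age. All cultures were induced with insulin, dexamethasone and isobutylmethylxanthine. After 4 days the medium was changed to insulin and the thyroid hormone T3, and RNA was taken on day 4 or day 8. The treated cultures received EGCG (epigallocatechin gallate), which is the main catechin in green tea, and the control cultures its solvent DMSO. The sources used here give no dose of EGCG and no sex of the mice. There were 8 groups, 1 for each depot, day and treatment, with 3 libraries in each. The labels do not say that replicates were separate isolations of cells, so p-values measure only the spread between these libraries, which may be technical.

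Adiponectin, leptin and resistin, the products of Adipoq, Lep and Retn, are hormones of metabolism, and leptin in particular informs the brain of the size of the fat stores. Cfd encodes adipsin, the protease complement factor D, and Rbp4 the carrier of retinol in blood. Both are made in quantity by mature adipocytes. Nampt (visfatin), Rarres2 (chemerin) and Apln (apelin) are expressed by many cell types besides adipocytes. Several adipocyte genes, Adipoq among them, are targets of the transcription factors PPARγ and C/EBPα, which drive the late steps of fat cell differentiation.

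The values are FPKM, reads scaled to gene length and to the size of the library. This scaling does not adjust for a library in which a few genes hold a large part of the reads. The depth was 39452696 to 52893848 gene reads in replicates 1 and 2. Replicate 3 of each group came in a separate table, scaled likewise to the gene reads of each library, and had 16392420 to 41675643 gene reads. Tests were made only on replicates 1 and 2, which share 1 table. They used limma on log2(FPKM + 1), a scale that understates changes of genes near 0. Replicate 3 is given for its value and direction, and a fold is the ratio of the mean FPKM of replicates 1 and 2. Overlap was judged over all 3 libraries. Replicate 3 read higher than replicates 1 and 2 for some genes and groups. Some overlaps therefore hold only when it is pooled with them, as for Rarres2 between the day 8 controls of the depots. The replicates are separate libraries, as the differences between replicates 1 and 2 exceeded sampling noise (mean chi-square per gene 4.48 to 10.3, and 60.0 in the WAT day 8 controls, where sampling noise alone gives about 1). In the library of WAT day 8 EGCG replicate 3, 5 genes held 61.0% of the reads, against at most 10 reads on them in any other library. Its values were also rescaled without those 5 genes. The 8 mature adipocyte markers summed to 5641 to 6266 FPKM in replicates 1 and 2 of the WAT day 8 controls and 10312 to 10399 FPKM in the BAT ones. The 5 brown depot markers summed to 28.1 to 30.3 and 221 to 224 FPKM there. Ucp1, the uncoupling protein gene of brown fat, was at or under 3 reads in the WAT day 8 controls and in all EGCG groups. The 4 white depot markers summed to 24.9 to 25.0 FPKM in WAT and 3.39 to 3.88 FPKM in BAT day 8 controls. All 8 mature adipocyte markers were lower with EGCG in each depot on each day. In bulk RNA, fewer adipocytes and less RNA of these genes per adipocyte cannot be told apart.

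The main question of the design is what EGCG does to the differentiating cells. With EGCG, 5 of the 8 adipokine genes were lower, 2 higher and 1 not called in WAT on day 4, beside 19.3% of all tested genes called lower and 34.4% called higher. In WAT on day 8 they numbered 7 lower and 1 not called (all genes: 18.9% lower, 44.7% higher). In BAT 7 were lower and 1 was not called on day 4 (all genes: 20.6% lower, 27.9% higher), and all 8 were lower on day 8 (all genes: 26.1% lower, 46.5% higher). The median log2 change of the 8 genes was -0.58, -4.57, -1.01 and -5.55 in that order, beside 0.09, 0.17, 0.03 and 0.17 over all tested genes. Median-ratio scaling moved the median of all genes to -0.02 in WAT on day 4, 0.01 in WAT on day 8 and 0.02 in BAT on day 8. It moved the percentage of calls that were upward from 64.1, 70.3 and 64.0% to 44.7, 51.2 and 51.8%, and the 8 genes were called as before. With replicate 3 as deposited, the 3 libraries of each treatment did not overlap for 7, 7, 7 and 8 of the 8 genes. Apln in WAT on day 8 overlapped as deposited but not after rescaling. The direction in replicate 3 after rescaling was the same for 8, 8, 7 and 8. Shares over all tested genes are not given for these counts, so they are not read as particular to the 8 genes. Values in parentheses after a gene are log2 changes on the log2(FPKM + 1) scale ± SE, with limma's Benjamini-Hochberg adjusted p. The SE and p use 1 spread per gene shared by all 8 groups, not that of the groups compared. The WAT day 8 controls varied most (mean chi-square per gene 60.0). The SE can therefore be too small in contrasts with that group and too large in others.

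**Figure D1:**
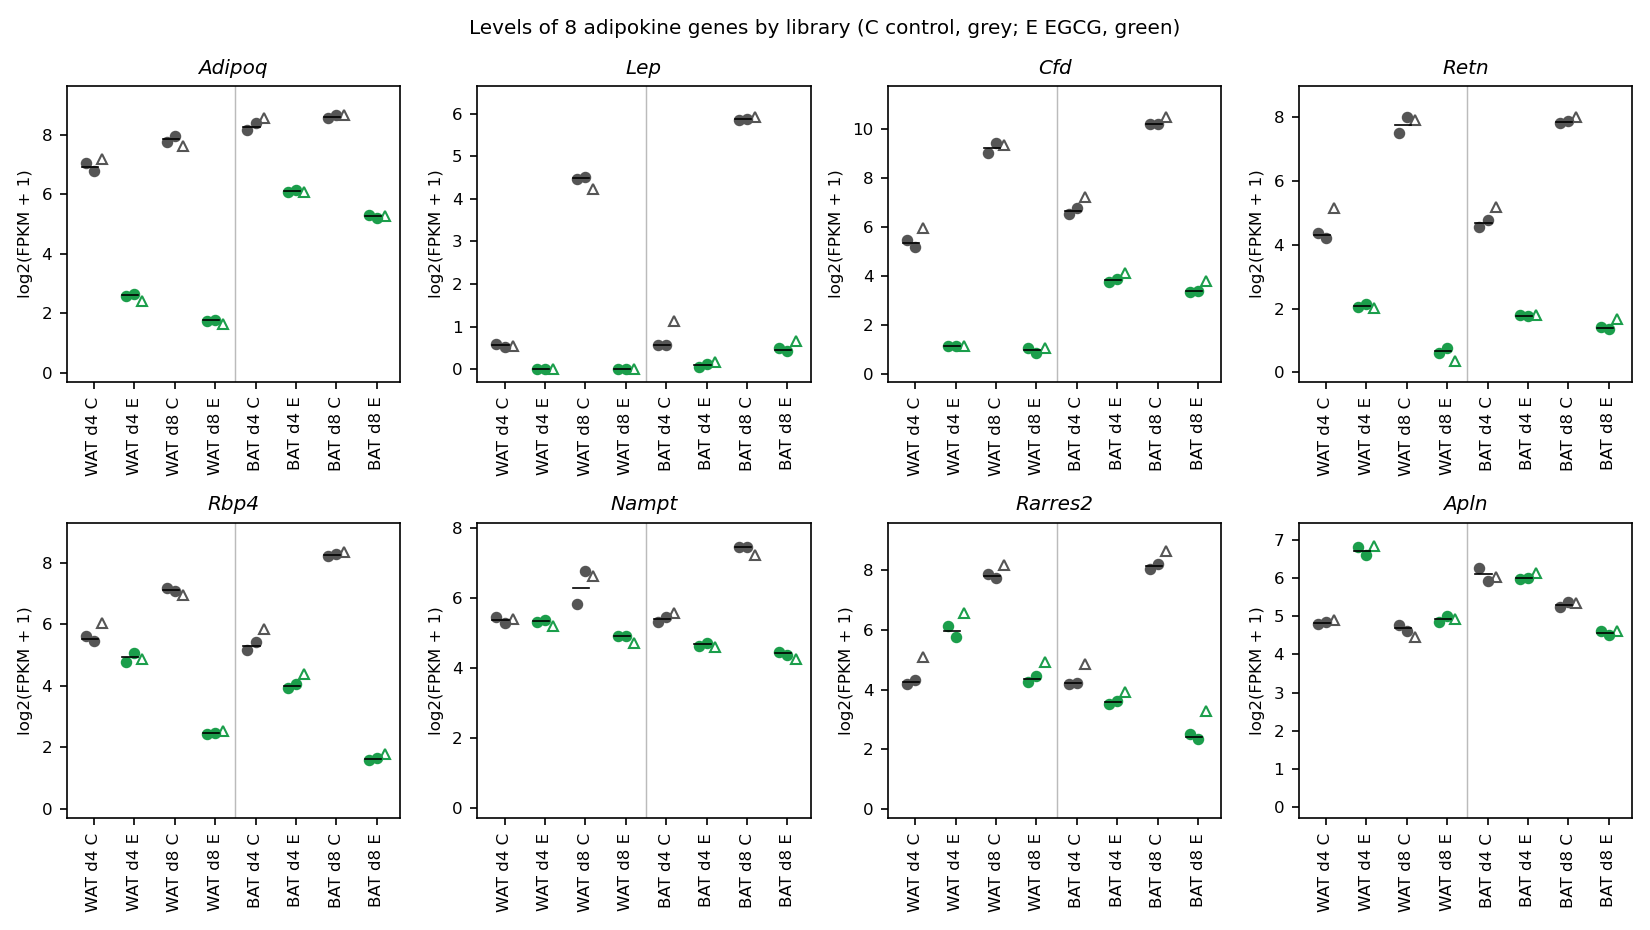
Level of each adipokine gene, as log2(FPKM + 1), in every library, with groups on the x axis (WAT or BAT, day 4 or 8, C control in grey, E EGCG in green). Filled points are replicates 1 and 2, short lines their mean, and open triangles replicate 3 (rescaled in WAT day 8 EGCG). The highest Apln values are those of WAT day 4 EGCG, whereas the other 7 genes have their highest mean in the BAT day 8 controls.

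**Figure D2:**
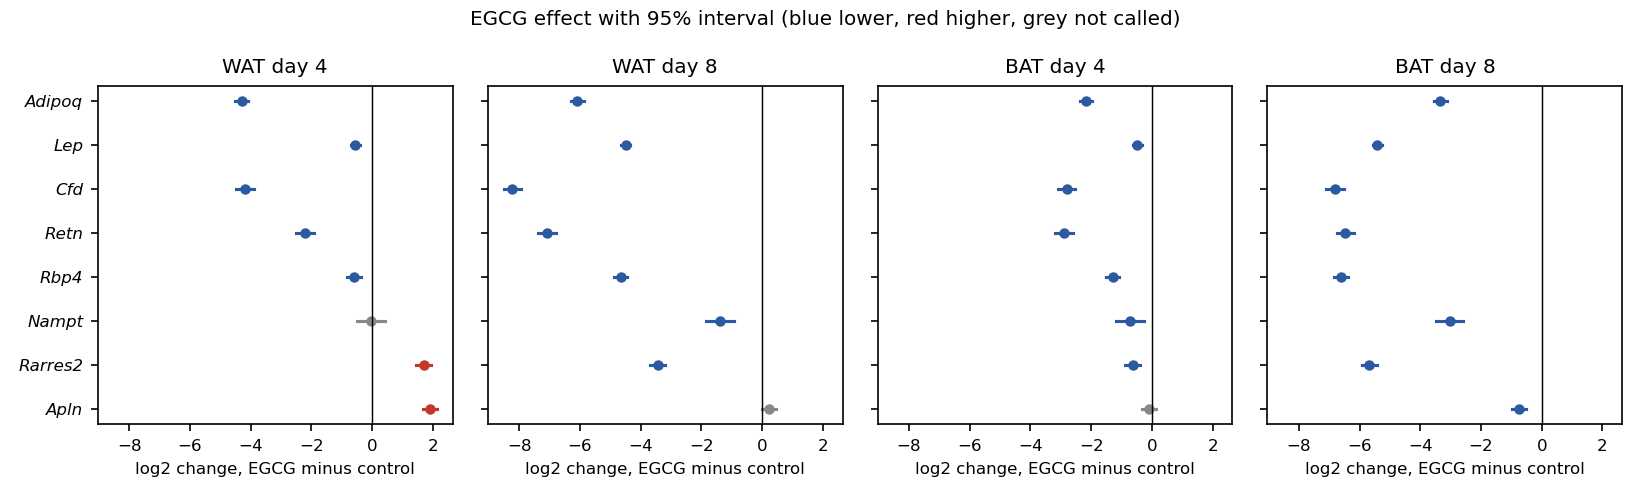
Log2 change of each adipokine gene with EGCG in replicates 1 and 2 (points) with its 95% interval (bars), in 4 panels for depot and day, blue for lower, red for higher and grey for not called at an adjusted p of 0.05. Rarres2 and Apln lie to the right of 0 in WAT on day 4, at 1.70 and 1.89, and all 8 genes lie to the left in BAT on day 8.

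Adipoq (ENSMUSG00000022878.5, chr16:23146609-23158101, plus strand, mouse build NCBIM37) encodes adiponectin, a hormone that raises insulin sensitivity. Its control values in WAT were 131, 110.2 and 143 FPKM in replicates 1, 2 and 3 on day 4, against 5.04, 5.31 and 4.29 FPKM with EGCG. By day 8 the WAT controls stood at 214, 246 and 195 FPKM and the EGCG cultures at 2.34, 2.45 and 0.817 (2.10 after rescaling) FPKM. The treatments did not overlap on either day, and Adipoq was 23.3-fold lower on day 4 (log2 change -4.30 ± 0.09, adjusted p = 1.58e-10) and 96.1-fold lower on day 8 (log2 change -6.09 ± 0.09, adjusted p = 2.14e-12). BAT controls held 285, 333 and 377 FPKM on day 4 and 374, 402 and 399.7 FPKM on day 8. With EGCG, BAT cultures kept 66.3, 69.3 and 66.3 FPKM on day 4 and 38.7, 36.1 and 37.7 FPKM on day 8. The fall in BAT was 4.56-fold on day 4 (log2 change -2.17 ± 0.09, adjusted p = 1.38e-08) and 10.4-fold on day 8 (log2 change -3.34 ± 0.09, adjusted p = 6.28e-11). The order of levels ran from the 4 control groups down to the BAT and then the WAT EGCG groups, and of its neighbours only the BAT controls of day 8 and day 4 overlapped.

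Lep (ENSMUSG00000059201.6, chr6:29010220-29023877, plus strand) encodes leptin, the hormone whose loss makes mice obese. A count of 3 reads, taken as the detection floor, corresponds to 0.0174 to 0.0562 FPKM depending on the library. In WAT the controls read 0.502, 0.444 and 0.449 FPKM on day 4 (84, 62 and 24 reads) and 21.3, 21.8 and 17.8 FPKM on day 8. With EGCG only 0, 1 and 0 reads were counted on day 4 and 1, 1 and 0 reads on day 8, all under the floor. The level in controls over that with EGCG, from the reads of replicates 1 and 2, was 141 (exact 95% interval 24.8 to 5591) on day 4 and 3227 (exact 95% interval 893 to 26653) on day 8. These intervals cover counting error alone. BAT controls read 0.473, 0.484 and 1.19 FPKM on day 4 and 57.1, 58.4 and 59.8 FPKM on day 8. With EGCG the BAT cultures read 0.0419, 0.0809 and 0.118 FPKM on day 4 (6, 13 and 7 reads) and 0.400, 0.342 and 0.569 FPKM on day 8 (61, 59 and 32 reads), above the floor in every library. The corresponding ratios in BAT were 7.66 (exact 95% interval 4.72 to 13.1) and 156 (exact 95% interval 131 to 189). In limma the change was called lower in each contrast. In WAT this was log2 change -0.55 ± 0.07, adjusted p = 2.83e-05 on day 4 and log2 change -4.49 ± 0.07, adjusted p = 2.14e-12 on day 8. In BAT it was log2 change -0.48 ± 0.07, adjusted p = 8.95e-05 on day 4 and log2 change -5.42 ± 0.07, adjusted p = 5.35e-13 on day 8. Because of the pseudocount of 1, the day 4 changes are small on this scale. Among neighbours in the order of levels, the day 4 controls of both depots, the WAT day 4 controls and BAT day 8 EGCG, and the WAT EGCG groups of both days overlapped.

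Promoter windows from RefSeq (build GRCm38.p6, 250 bases before to 50 bases after each transcription start) were matched for 7 of the 8 genes, Rbp4 having 2. Letters known as binding motifs were searched on both strands. They were TTGCGCAA and TTGCNNAA for C/EBP factors (the first is a case of the second), the DR1 element of PPARγ with RXR, the E-box CACGTG and the TATA box TATAAA. The 150 bases before the start are shown for Lep and for the second Rbp4 window, the only windows of these genes with a match. Those of Adipoq, lower in all 4 EGCG contrasts, and Apln, higher in WAT on day 4, are shown for comparison. Capitals mark the matches.
Lep (chr6:29060071-29060220, plus strand): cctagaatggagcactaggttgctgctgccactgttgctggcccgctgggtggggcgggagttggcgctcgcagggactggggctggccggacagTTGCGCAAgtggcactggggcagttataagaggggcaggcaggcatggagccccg
Rbp4 (chr19:38124812-38124961, minus strand): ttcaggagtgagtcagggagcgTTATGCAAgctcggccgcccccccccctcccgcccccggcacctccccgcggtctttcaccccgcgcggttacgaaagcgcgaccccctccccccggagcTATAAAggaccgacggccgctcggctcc
Adipoq (chr16:23146386-23146535, plus strand): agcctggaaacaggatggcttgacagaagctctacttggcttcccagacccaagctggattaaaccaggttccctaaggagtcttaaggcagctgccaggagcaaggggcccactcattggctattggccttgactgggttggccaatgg
Apln (chrX:48034854-48035003, minus strand): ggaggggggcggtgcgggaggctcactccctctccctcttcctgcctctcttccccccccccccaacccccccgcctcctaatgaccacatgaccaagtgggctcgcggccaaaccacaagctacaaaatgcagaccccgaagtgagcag
The Lep window holds the palindrome TTGCGCAA 55 bases before the start, a sequence found in 60 of 32851 windows of all genes (0.183%). The Rbp4 window holds a TTGCNNAA match on its reverse strand 128 bases before the start and a TATA box 28 bases before it, motifs held by 10.8% and 13.6% of all windows. DR1 was found in 0.0396% and CACGTG in 7.15% of all windows and in no window of the 8 genes. These matches describe letters, and binding was not measured.

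Retn (ENSMUSG00000012705.9, chr8:3655770-3660110, plus strand) encodes resistin, a hormone that in mice is made mainly by adipocytes. The WAT controls held 19.8, 17.5 and 34.4 FPKM on day 4 and 181, 257 and 239 FPKM on day 8. EGCG cultures of WAT held 3.10, 3.43 and 3.08 FPKM on day 4 and 0.515, 0.694 and 0.107 (0.275 after rescaling) FPKM on day 8, the last from 30, 31 and 5 reads. Retn was thus 5.72-fold lower on day 4 (log2 change -2.21 ± 0.13, adjusted p = 1.28e-07) and 362-fold lower on day 8 (log2 change -7.08 ± 0.13, adjusted p = 5.14e-12). In BAT the controls held 22.7, 26.7 and 35.8 FPKM on day 4 and 226, 237 and 256 FPKM on day 8, against 2.46, 2.41 and 2.51 FPKM and 1.68, 1.59 and 2.17 FPKM with EGCG. No library overlapped between treatments, the fall being 10.1-fold on day 4 (log2 change -2.90 ± 0.13, adjusted p = 1.77e-08) and 142-fold on day 8 (log2 change -6.47 ± 0.13, adjusted p = 6.53e-12). Between depots the controls overlapped on each day, on day 4 only when replicate 3 was pooled with the others. The 4 EGCG groups stood apart from each other in the order of levels.

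Cfd (ENSMUSG00000061780.5, chr10:79353598-79355401, plus strand) encodes adipsin, the protease that cleaves factor B in the alternative pathway of complement. It had the highest level of the 8 genes in the day 8 controls, with 508, 676 and 648 FPKM in WAT and 1173, 1159 and 1436 FPKM in BAT. On day 4 the controls held 43.9, 35.8 and 60.7 FPKM in WAT and 90.4, 107 and 146 FPKM in BAT. With EGCG, WAT cultures held 1.23, 1.23 and 1.25 FPKM on day 4 and 1.10, 0.843 and 0.442 (1.13 after rescaling) FPKM on day 8. On the log2(FPKM + 1) scale the WAT day 8 change was the largest of the 8 genes: Cfd was 32.4-fold lower on day 4 (log2 change -4.19 ± 0.13, adjusted p = 1.04e-09) and 608-fold lower on day 8 (log2 change -8.22 ± 0.13, adjusted p = 2.14e-12). BAT cultures with EGCG held 12.6, 13.8 and 16.7 FPKM on day 4 and 9.25, 9.55 and 13.1 FPKM on day 8. Cfd was 7.47-fold lower there on day 4 (log2 change -2.81 ± 0.13, adjusted p = 1.85e-08) and 124-fold lower on day 8 (log2 change -6.81 ± 0.13, adjusted p = 4.75e-12). Of the neighbours in the order of levels only the BAT EGCG groups of day 4 and day 8 overlapped.

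Rbp4 (ENSMUSG00000024990.6, chr19:38191110-38199811, minus strand) encodes the retinol binding protein of blood. In WAT on day 4 its controls held 47.8, 42.7 and 64.5 FPKM and the EGCG cultures 26.6, 32.4 and 28.2 FPKM, a smaller separation than that of Adipoq, Cfd or Retn, with a 1.53-fold fall (log2 change -0.60 ± 0.10, adjusted p = 0.000414). On day 8 the WAT values were 143, 133 and 122 FPKM in controls and 4.42, 4.58 and 1.89 (4.85 after rescaling) FPKM with EGCG, 30.6-fold lower (log2 change -4.66 ± 0.10, adjusted p = 1.55e-11). The treatments did not overlap on either day. For BAT the day 4 values were 34.5, 41.8 and 56.7 FPKM in controls and 14.1, 15.7 and 19.6 FPKM with EGCG, 2.56-fold lower (log2 change -1.30 ± 0.10, adjusted p = 1.02e-06). On day 8 they were 298, 309 and 326 FPKM and 2.01, 2.17 and 2.42 FPKM, 145-fold lower (log2 change -6.62 ± 0.10, adjusted p = 1.43e-12). BAT on day 8 thus held both the highest control level and the lowest EGCG level of the gene. In the order of levels only the day 4 controls of the depots overlapped. There WAT was above BAT within replicates 1 and 2 and within replicate 3.

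Nampt (ENSMUSG00000020572.7, chr12:33505200-33538234, plus strand) encodes nicotinamide phosphoribosyltransferase, the rate-limiting enzyme of NAD synthesis from nicotinamide, which is also found outside cells as visfatin. WAT on day 4 held 43.3, 38.1 and 40.9 FPKM in controls and 38.9, 40.4 and 35.8 FPKM with EGCG, which overlapped (log2 change -0.03 ± 0.21, adjusted p = 0.908). On day 8 the WAT controls read 55.9, 108 and 98.0 FPKM, replicate 1 being well below the others, and the EGCG cultures 29.1, 29.4 and 9.84 (25.2 after rescaling) FPKM. All EGCG libraries were below all controls, a 2.80-fold fall (log2 change -1.38 ± 0.21, adjusted p = 0.000105, and -0.91 without control replicate 2). In BAT the values were 39.1, 43.2 and 46.5 FPKM in controls and 23.8, 25.5 and 23.3 FPKM with EGCG on day 4, and 176, 175 and 149 FPKM and 21.1, 19.9 and 17.98 FPKM on day 8. The fall in BAT was 1.67-fold on day 4 (log2 change -0.71 ± 0.21, adjusted p = 0.0134) and 8.55-fold on day 8 (log2 change -3.04 ± 0.21, adjusted p = 7.57e-08). Without BAT day 4 control replicate 2 or BAT day 4 EGCG replicate 1 the day 4 call was lost (log2 change -0.64, adjusted p = 0.0766, and -0.67, adjusted p = 0.0699). In the order of levels the day 4 controls of the depots overlapped, as did WAT day 4 controls with WAT day 4 EGCG and WAT day 8 EGCG with BAT day 4 EGCG. The annotated gene holds the noncoding RNA Gdap10 on the same strand over 5033 bases, so reads there could be counted for either (Gdap10 was listed at 0.297 to 15.7 FPKM).

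Rarres2 (ENSMUSG00000009281.4, chr6:48519697-48522669, minus strand) encodes chemerin, a chemoattractant for leukocytes that also acts on adipocytes. In WAT on day 4 it was higher with EGCG, at 69.4, 53.1 and 92.1 FPKM against 17.1, 18.9 and 32.7 FPKM in controls, without overlap. This was a 3.40-fold rise (log2 change 1.70 ± 0.11, adjusted p = 2.99e-07). On day 8 the direction was the opposite, with 233, 209 and 285 FPKM in WAT controls and 18.2, 20.8 and 11.5 (29.5 after rescaling) FPKM with EGCG, 11.4-fold lower (log2 change -3.44 ± 0.11, adjusted p = 5.64e-10). BAT showed 17.0, 17.8 and 27.6 FPKM in controls and 10.5, 11.3 and 14.1 FPKM with EGCG on day 4, 1.60-fold lower (log2 change -0.63 ± 0.11, adjusted p = 0.000754). On day 8 BAT controls rose to 262, 290.3 and 397 FPKM and EGCG cultures held 4.70, 4.09 and 8.84 FPKM, 62.9-fold lower (log2 change -5.68 ± 0.11, adjusted p = 6.53e-12). In the order of levels the neighbours that overlapped were the day 8 controls of the depots, WAT day 8 EGCG with the WAT day 4 controls, and the day 4 controls of the depots. On the opposite strand Lrrc61 overlaps Rarres2 over 1025 bases (1.67 to 12.7 FPKM), and without stated use of strand in counting reads of the overlap cannot be told apart.

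Apln (ENSMUSG00000037010.7, chrX:45378323-45388030, minus strand) encodes apelin, a peptide that acts on a receptor of blood vessels and heart and is also made by endothelial cells. EGCG cultures of WAT on day 4 held 112, 97.0 and 115 FPKM against 26.8, 27.8 and 29.1 FPKM in controls, a 3.82-fold rise without overlap (log2 change 1.89 ± 0.11, adjusted p = 6.59e-08). By day 8 the WAT values were 26.4, 23.5 and 21.1 FPKM in controls and 27.9, 31.2 and 11.4 (29.2 after rescaling) FPKM with EGCG (log2 change 0.23 ± 0.11, adjusted p = 0.0714). This difference passed the threshold without WAT day 8 control replicate 1 (log2 change 0.31, adjusted p = 0.0489) and without either BAT day 4 control, which enter through the shared spread (adjusted p = 0.03 and 0.0301). BAT on day 4 held 76.1, 60.3 and 64.7 FPKM in controls and 62.0, 63.6 and 69.0 FPKM with EGCG, which overlapped (log2 change -0.11 ± 0.11, adjusted p = 0.428). On day 8 BAT controls held 37.0, 40.3 and 39.9 FPKM and EGCG cultures 23.6, 21.6 and 23.5 FPKM, 1.71-fold lower without overlap (log2 change -0.75 ± 0.11, adjusted p = 4.3e-05). The order of levels differed from that of the other genes, with WAT day 4 EGCG highest, the day 4 BAT groups next and BAT day 8 EGCG lowest. Neighbours that overlapped were the day 4 BAT groups, WAT day 8 EGCG with the WAT day 4 controls, and the WAT day 8 controls with BAT day 8 EGCG.

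Markers of other cell types of the stromal vascular fraction moved in the same cultures, and their part in the changes of Rarres2, Apln and the other genes was not tested. The 5 endothelial markers (Pecam1, Cdh5, Kdr, Tek and Vwf) summed in replicates 1 and 2 to 12.9 to 14.3 FPKM in WAT day 4 controls and 30.7 to 32.0 FPKM with EGCG, where Apln rose. They summed to 9.43 to 11.6 and 30.9 to 33.7 FPKM in BAT on day 4, where Apln was not called. On day 8 the sums were 19.1 to 20.1 and 26.1 to 26.2 FPKM in WAT and 14.2 to 14.7 and 27.5 to 28.8 FPKM in BAT. The 5 macrophage markers summed to 14.2 to 14.9 FPKM in WAT day 4 controls and 20.3 to 20.8 FPKM with EGCG, but to 26.2 to 33.5 and 12.3 to 12.9 FPKM on day 8. In BAT they summed to 19.8 to 20.8 and 30.1 to 31.7 FPKM on day 4 and to 20.4 to 20.6 and 9.89 to 9.96 FPKM on day 8. The 5 progenitor markers summed to 347 to 377 FPKM in WAT day 4 controls and 524 to 530.2 FPKM with EGCG, and to 1147 to 1296 and 785 to 801 FPKM on day 8. In BAT these sums were 313 to 383 and 387 to 433 FPKM on day 4 and 411 to 428 and 418 to 433 FPKM on day 8. The abundant members carried these sums, and the single markers did not move together. The numbers called higher and lower with EGCG were 1 and 2 in WAT on day 4, 1 and 4 in WAT on day 8, 1 and 1 in BAT on day 4 and 1 and 3 in BAT on day 8. Ly6a was the marker called higher in WAT on day 4 (from 101 ± 17.3 to 309 ± 9.15 FPKM), and Pdgfrb the one called higher in the other contrasts. No endothelial, macrophage or progenitor marker was at or under 3 reads throughout a group. The 8 mature adipocyte markers summed to 3613 to 3971 and 1095 to 1145 FPKM in WAT on day 4 and to 641 to 705 FPKM with EGCG on day 8. In BAT they summed to 6047 to 7007 and 1489.7 to 1548 FPKM on day 4 and 435 to 447 FPKM with EGCG on day 8. The 6 skeletal muscle markers summed to 29.9 to 30.9 FPKM in WAT day 4 controls and 43.8 to 45.7 FPKM with EGCG, and to 19.6 to 22.3 and 21.5 to 24.7 FPKM on day 8. In BAT they summed to 6.74 to 10.97 and 10.1 to 11.3 FPKM on day 4 and to 78.5 to 82.4 and 20.9 to 23.8 FPKM on day 8. Of the 3 tested muscle markers 2 were called higher in WAT on day 4 and 2 lower in BAT on day 8. Among the latter was Mb, the myoglobin gene (from 54.8 ± 0.438 to 3.29 ± 0.718 FPKM in BAT). Mb made up most of the BAT day 8 control sum. Which cells expressed it was not tested, so this fall is not read as a loss of muscle cells. All 4 tested endothelial markers were called higher with EGCG in BAT on day 8, but 2 of them only without median-ratio scaling. In WAT on day 8, 3 of the 4 were called higher and Pecam1 was not called (log2 change -0.16). Pecam1 was called lower there in limma with median-ratio (-0.34, adjusted p = 0.0131) and quantile scaling (-0.26, adjusted p = 0.0492).

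Between day 4 and day 8 the controls passed from induction to maturation, and 7 of the 8 genes were higher on day 8 in each depot. In WAT none was called lower and Apln was not called, beside 27.7% of all genes called higher and 33.2% lower. In BAT Apln was called lower, beside 28.7% of all genes called higher and 40.4% lower. The median log2 change of the 8 genes was 2.53 in WAT and 3.07 in BAT (all genes -0.03 and -0.10). Lep had the largest rise, 45.6-fold in WAT (3.94 ± 0.07, adjusted p = 9.07e-12) and 121-fold in BAT (5.31 ± 0.07, adjusted p = 6.74e-13). Rarres2 (12.3-fold in WAT, 15.9-fold in BAT), Cfd (14.8- and 11.8-fold) and Retn (11.7- and 9.39-fold) rose as well (largest adjusted p = 3.2e-09). Rbp4 rose 3.05-fold in WAT and 7.96-fold in BAT, and Nampt 2.02-fold (0.92 ± 0.21, adjusted p = 0.0022) and 4.27-fold (2.07 ± 0.21, adjusted p = 2.87e-06). The log2 change of Nampt in WAT was 1.39 without WAT day 8 control replicate 1 and 0.45 without replicate 2, both called. Adipoq, already high on day 4, rose 1.90-fold in WAT (0.92 ± 0.09, adjusted p = 5.59e-06) and 1.26-fold in BAT (0.33 ± 0.09, adjusted p = 0.00842). The 3 libraries of each day overlapped in BAT, but day 8 was above day 4 within replicates 1 and 2 and within replicate 3. The call there was lost without BAT day 4 control replicate 1 (log2 change 0.22, adjusted p = 0.0953) or BAT day 8 control replicate 2 (0.28, adjusted p = 0.0618). The log2 change of Apln was -0.13 ± 0.11, adjusted p = 0.32 in WAT and -0.80 ± 0.11, adjusted p = 3.09e-05 in BAT.

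In the EGCG cultures Adipoq, Retn, Rbp4 and Rarres2, all higher on day 8 in the controls, were lower on day 8 in both depots, and so was Cfd in BAT. Apln was lower in both depots as well, as it was in the BAT controls. In WAT 5 genes were lower on day 8, 0 higher and 3 (Lep, Cfd and Nampt) not called in limma, beside 27.7% of all genes called lower and 31.8% higher. Rbp4 fell 6.55-fold (-2.46 ± 0.10, adjusted p = 6.1e-09) and Apln 3.53-fold (-1.78 ± 0.11, adjusted p = 7.65e-08). Rarres2 fell 3.15-fold (-1.60 ± 0.11, adjusted p = 3.56e-07), Retn 5.40-fold (-1.41 ± 0.13, adjusted p = 3.11e-06) and Adipoq 2.16-fold (-0.86 ± 0.09, adjusted p = 1.06e-05). Nampt had a log2 change of -0.43 ± 0.21, adjusted p = 0.0956, but without either WAT day 8 control library the adjusted p was 0.000165 or 0.000166. In BAT 6 were lower, Lep was higher and Nampt was not called, beside 28.2% of all genes called lower and 29.7% higher. Lep in BAT went from 6, 13 and 7 reads to 61, 59 and 32 reads (0.37 ± 0.07, adjusted p = 0.00048). Rbp4 (7.11-fold, -2.36 ± 0.10, adjusted p = 7.77e-09) and Apln (2.78-fold, -1.44 ± 0.11, adjusted p = 3.79e-07) fell most. The falls of Cfd (-0.45 ± 0.13, adjusted p = 0.0108) and Retn (-0.38 ± 0.13, adjusted p = 0.0271) were near the threshold. The fall of Retn was not called with quantile scaling (adjusted p = 0.0583) or with no filter on low values (adjusted p = 0.0651). That of Cfd was lost without BAT day 4 EGCG replicate 2 (adjusted p = 0.0703) or BAT day 8 EGCG replicate 1 (adjusted p = 0.0534) and with voom on recovered reads (adjusted p = 0.0924). That of Retn was lost without any of the 4 libraries of the BAT EGCG groups (adjusted p = 0.0694 to 0.106) and with voom (adjusted p = 0.368). For Nampt in BAT (log2 change -0.25 ± 0.21, adjusted p = 0.316), leaving out WAT day 8 control replicate 1 or 2 gave adjusted p = 0.00545 or 0.00548.

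The change with EGCG was more negative on day 8 than on day 4 for all 8 genes in each depot, by the interaction of day and treatment. Of all genes 19.7% were called more negative and 29.7% more positive on day 8 in WAT, and 20.6% and 34.7% in BAT. In WAT the difference of log2 changes was -5.14 ± 0.16 (adjusted p = 2.79e-09) for Rarres2, which reversed its direction, and -1.35 ± 0.29 (adjusted p = 0.00265) for Nampt, or -0.88 without WAT day 8 control replicate 2. In BAT it was -5.33 ± 0.15 (adjusted p = 1.29e-09) for Rbp4 and -0.64 ± 0.15 (adjusted p = 0.00331) for Apln. The order of the genes by this difference depended on the scale, since Retn in WAT, at -4.88 here, was at -5.98 and Rarres2 at -5.28 with voom on recovered reads. 

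Brown and white cultures were compared within each day and treatment. In the day 4 controls 4 of the 8 genes were higher in BAT and none lower, beside 41.4% of all genes called higher and 14.4% lower. Adipoq was 2.56-fold higher (1.35 ± 0.09, adjusted p = 8.39e-07), Cfd 2.47-fold (1.29 ± 0.13, adjusted p = 1.09e-05) and Apln 2.50-fold (1.28 ± 0.11, adjusted p = 2.56e-06). For these the 3 libraries of each depot did not overlap. Retn was 1.32-fold higher (0.38 ± 0.13, adjusted p = 0.0289), with overlap over 3 libraries but not within replicates 1 and 2. This call was lost without replicate 2 of the WAT or the BAT day 4 controls (adjusted p = 0.164 and 0.19) and with median-ratio scaling (adjusted p = 0.196). Rbp4 had a log2 difference of -0.24 ± 0.10, adjusted p = 0.0627. It passed as lower in BAT with median-ratio scaling (-0.41, adjusted p = 0.00734), which moved the median of all genes from 0.15 to 0.02. It also passed without BAT day 4 control replicate 2 (-0.38, adjusted p = 0.0179) and without either WAT day 4 EGCG library (adjusted p = 0.0378 and 0.0379). Under that scaling 51.5% of the called genes were higher in BAT, against 74.3% before. Lep (0.01 ± 0.07, adjusted p = 0.948), Nampt (0.02 ± 0.21, adjusted p = 0.954) and Rarres2 (-0.04 ± 0.11, adjusted p = 0.77) were not called.

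In the day 8 controls 7 of the 8 genes were higher in BAT and none lower, beside 31.6% and 22.0% of all genes. Lep, often described as a product of white fat, was 2.67-fold higher in BAT (1.38 ± 0.07, adjusted p = 2.13e-08), with 57.1, 58.4 and 59.8 FPKM against 21.3, 21.8 and 17.8 FPKM in WAT. Rbp4 was 2.20-fold (1.13 ± 0.10, adjusted p = 3e-06) and Nampt 2.14-fold higher (1.16 ± 0.21, adjusted p = 0.000548). Without WAT day 8 control replicate 1 the log2 difference of Nampt was 0.70. Cfd was 1.97-fold (0.99 ± 0.13, adjusted p = 5.67e-05), Adipoq 1.69-fold (0.76 ± 0.09, adjusted p = 4.05e-05) and Apln 1.55-fold higher (0.61 ± 0.11, adjusted p = 0.000445). The 3 libraries of the depots did not overlap for any of these. Rarres2 was 1.25-fold higher with overlap (0.32 ± 0.11, adjusted p = 0.0344), a call lost without replicate 2 of the WAT or the BAT day 8 controls (adjusted p = 0.172 and 0.185) and with median-ratio scaling (adjusted p = 0.0609). Retn was not called (0.10 ± 0.13, adjusted p = 0.551), and its value turned on the WAT controls, being -0.15 (adjusted p = 0.264) without replicate 1 and 0.35 (adjusted p = 0.0153) without replicate 2. The mature adipocyte markers also had larger sums in these BAT cultures and their part in these differences was not tested.

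With EGCG the depots separated in opposite directions by gene. On day 4 Adipoq (13.1-fold, 3.48 ± 0.09, adjusted p = 1.72e-09) and Cfd (10.7-fold, 2.67 ± 0.13, adjusted p = 5.45e-08) were higher in BAT. Rarres2 (5.62-fold, -2.38 ± 0.11, adjusted p = 5.43e-08) and Rbp4 (1.98-fold, -0.94 ± 0.10, adjusted p = 1.96e-05) were lower in BAT. So were Apln (1.66-fold, -0.72 ± 0.11, adjusted p = 0.000177) and Nampt (1.61-fold, -0.67 ± 0.21, adjusted p = 0.0194). This is 2 higher and 4 lower of 8, beside 32.9% and 15.8% of all genes. The call of Nampt was lost without any of the 4 libraries compared (adjusted p = 0.054 to 0.0911). Retn (-0.31 ± 0.13, adjusted p = 0.0741) passed as lower in BAT without either WAT day 8 control (adjusted p = 0.0101 and 0.0102). Lep was not called (0.08 ± 0.07, adjusted p = 0.337), but its 6, 13 and 7 reads in BAT against 0, 1 and 0 reads in WAT passed with a pseudocount of 0.1 (0.63, adjusted p = 0.012) and with voom (3.41, adjusted p = 0.0038).

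On day 8 the EGCG groups gave 4 genes higher in BAT (Adipoq, Cfd, Retn and Lep), 3 lower (Rbp4, Rarres2 and Apln) and Nampt not called, beside 24.4% of all genes higher and 14.0% lower. Adipoq was 15.6-fold higher (3.50 ± 0.09, adjusted p = 1.2e-09), Cfd 9.66-fold (2.40 ± 0.13, adjusted p = 1.7e-07) and Retn 2.70-fold (0.72 ± 0.13, adjusted p = 0.0014). Lep differed by 0.45 ± 0.07, adjusted p = 0.000299, from 61, 59 and 32 reads in BAT against 1, 1 and 0 reads in WAT. Rarres2 was 4.43-fold lower (-1.92 ± 0.11, adjusted p = 3.74e-07) and Rbp4 2.15-fold lower (-0.83 ± 0.10, adjusted p = 8.22e-05). Apln was 1.31-fold lower (-0.37 ± 0.11, adjusted p = 0.0158), a call lost without replicate 2 of the WAT or the BAT EGCG cultures (adjusted p = 0.121 and 0.109). Retn was not called with voom (adjusted p = 0.145). Nampt (-0.49 ± 0.21, adjusted p = 0.0808) passed without WAT day 8 control replicate 1 or 2 (adjusted p = 0.000139 and 0.00014). The direction in replicate 3 was the same for 5 of the 8 genes as deposited and for 8 after rescaling of the WAT library.

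Whether EGCG changed a gene differently in the depots was tested by the interaction of depot and treatment. On day 4 the change was more positive in BAT for Adipoq (2.13 ± 0.13, adjusted p = 1.46e-06) and Cfd (1.38 ± 0.18, adjusted p = 0.000258). It was more negative for Rarres2 (-2.33 ± 0.16, adjusted p = 3.08e-06), Apln (-1.999 ± 0.15, adjusted p = 4.27e-06), Retn (-0.69 ± 0.19, adjusted p = 0.0181) and Rbp4 (-0.69 ± 0.15, adjusted p = 0.00469). That is 2 and 4 of 8, beside 12% and 16.1% of all genes. Lep (0.08 ± 0.09, adjusted p = 0.587) and Nampt (-0.68 ± 0.29, adjusted p = 0.104) were not called. On day 8 it was more positive for Adipoq (2.75 ± 0.13, adjusted p = 1.36e-07), Cfd (1.41 ± 0.18, adjusted p = 0.00012) and Retn (0.61 ± 0.19, adjusted p = 0.0226). It was more negative for Rarres2 (-2.24 ± 0.16, adjusted p = 1.96e-06), Rbp4 (-1.96 ± 0.15, adjusted p = 2.26e-06), Nampt (-1.66 ± 0.29, adjusted p = 0.000982), Apln (-0.98 ± 0.15, adjusted p = 0.000353) and Lep (-0.93 ± 0.09, adjusted p = 1.87e-05). That makes 3 and 5 of 8, beside 19.4% and 19.7% of all genes. The sign for Lep depended on the scale, being 0.72 (adjusted p = 0.0419) with a pseudocount of 0.1 and 3.79 (adjusted p = 0.000504) with voom. The WAT cultures with EGCG held 1, 1 and 0 reads of Lep. With voom the day 4 difference of Lep was also called (3.39, adjusted p = 0.0106). Retn was not called with voom on day 4 (-0.82, adjusted p = 0.234) or day 8 (1.35, adjusted p = 0.187). On day 8 it was not called with no filter on low values either (0.61, adjusted p = 0.0571). The calls of Retn were lost without replicate 2 of any of the 4 day 4 groups (adjusted p = 0.05003 to 0.0696) and, on day 8, without WAT control replicate 2 (log2 difference 0.36) or without replicate 1 of WAT EGCG, BAT control or BAT EGCG (adjusted p = 0.0505 to 0.08 over these). Nampt on day 4 was called without either WAT day 8 control (adjusted p = 0.000273 and 0.000274).

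The make-up of the adipokine transcripts changed with these differences. The 8 genes summed to a median of 331 FPKM in WAT controls on day 4 and 1626 FPKM on day 8, and with EGCG to 256 and 83.5 FPKM. The last median takes WAT day 8 EGCG replicate 3 as deposited, at 36.0 FPKM, beside 83.5 and 90.0 FPKM in replicates 1 and 2. In BAT the medians were 630.3 and 2671 FPKM in controls and 202 and 101 FPKM with EGCG. Adipoq led the day 4 controls, with 37.8% (35.3 to 39.8%) of the sum in WAT and 50.4% (49.9 to 52.8%) in BAT (median and range of 3 libraries). Cfd led the day 8 controls, with 39.9% (36.7 to 40.4%) and 45.0% (43.4 to 46.9%). Nampt, Rarres2 and Apln together, the 3 genes with broad expression, made up 26.4% (25.3 to 29.1%) in WAT day 4 controls and 86.0% (81.8 to 86.8%) with EGCG. On day 8 their share in WAT was 22.8% (20.4 to 24.8%) in controls and 90.5% (90.0 to 90.9%) with EGCG. The BAT shares were 19.2% (18.4 to 23.4%) and 50.2% (49.8 to 50.2%) on day 4 and 18.9% (18.3 to 19.1%) and 47.8% (47.4 to 48.7%) on day 8. The 3 genes did not move alike in BAT on day 8. The median share of Rarres2 fell from 10.9 to 4.64%, while those of Nampt (6.55 to 20.8%) and Apln (1.42 to 22.6%) rose. This grouping was not among the planned lists, and its share also rises when the other genes fall. Adipoq still held 37.9% (35.5 to 38.2%) of the sum in BAT day 8 EGCG but 2.72% (2.27 to 2.80%) in WAT day 8 EGCG. Shares within a library do not depend on its scaling.

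**Figure D3:**
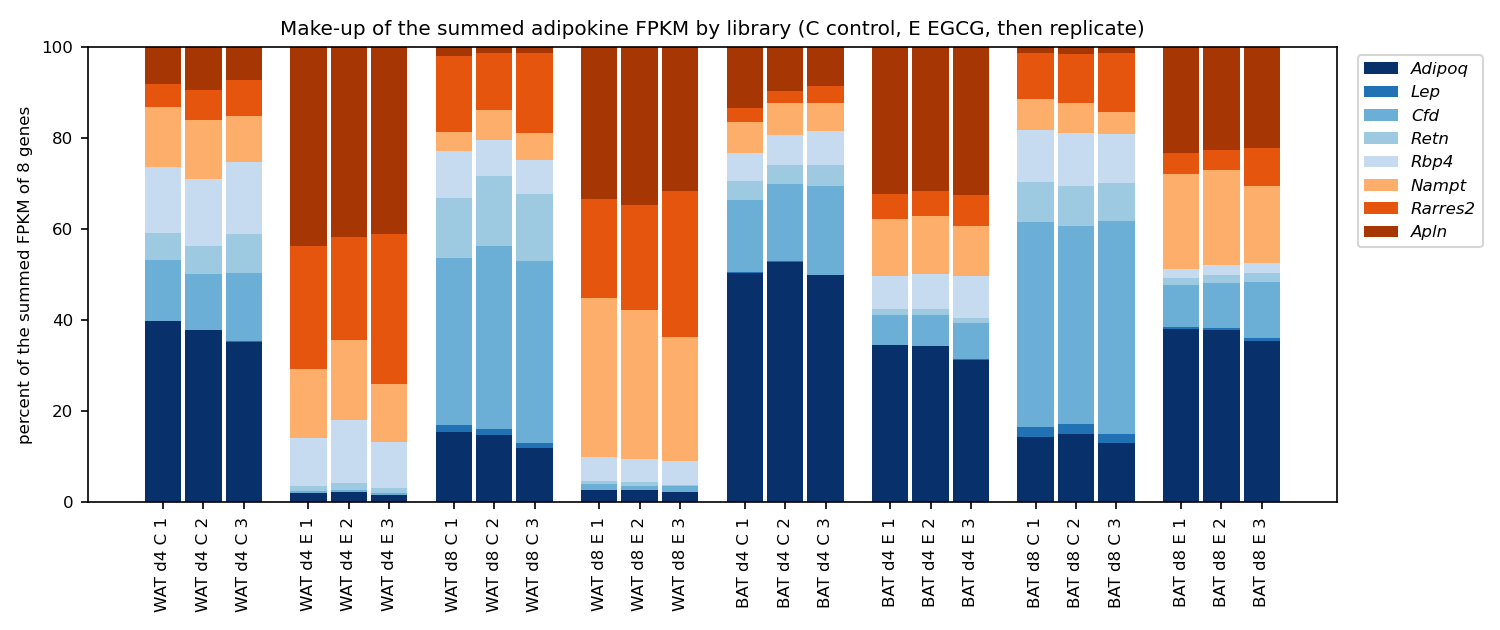
Share of each adipokine gene in the summed FPKM of the 8 genes, in percent, for every library (C control, E EGCG, then the replicate number); blue shades are Adipoq, Lep, Cfd, Retn and Rbp4, and orange shades Nampt, Rarres2 and Apln. The orange share is highest in the WAT EGCG libraries, with medians of 86.0% on day 4 and 90.5% on day 8.

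The receptors of these proteins were measured in the same libraries. Of 9 listed receptor genes 4 passed the filter (Adipor1, Adipor2, Cdh13 and Cmklr1) and 5 did not. The leptin receptor Lepr reached at most 0.498 FPKM and the Rbp4 receptor Stra6 0.383 FPKM in any library. The chemerin-binding receptors Gpr1 and Ccrl2 reached 0.0933 and 0.688 FPKM, and the apelin receptor Aplnr reached 0.108 FPKM. These 5 were named after their values were seen. For those tested, and for the other lists, the counts with EGCG stand beside the percentages of all tested genes. In WAT 34.4% of all genes were called higher and 19.3% lower on day 4, and 44.7% and 18.9% on day 8. In BAT the percentages were 27.9% and 20.6% on day 4 and 46.5% and 26.1% on day 8. The median log2 changes of all genes were 0.09, 0.17, 0.03 and 0.17 in this order. Counts near these percentages are not read as particular to a list. With EGCG the numbers higher, lower and not called in WAT were 2, 1 and 1 on day 4 and 1, 3 and 0 on day 8. In BAT they were 2, 2 and 0 on day 4 and 1, 1 and 2 on day 8 (median log2 changes 0.13, -0.53, -0.17 and -0.05 in this order). Adipor2, an adiponectin receptor, was lower in all 4 contrasts. In WAT on day 8 it went from 55.4 ± 5.87 to 16.8 ± 0.327 FPKM (log2 change -1.66 ± 0.07, adjusted p = 3.81e-09), and in BAT on day 8 from 114 ± 0.427 to 17.3 ± 0.0939 FPKM (log2 change -2.65 ± 0.07, adjusted p = 3.34e-11), values being the mean ± SD of replicates 1 and 2 (n = 2). Adipor1, the other adiponectin receptor, had the highest change on day 8 in WAT, from 32.9 ± 0.0107 to 40.7 ± 0.0470 FPKM (log2 change 0.30 ± 0.04, adjusted p = 3.23e-05). Its smaller rises in WAT on day 4 and BAT on day 8 were not called with median-ratio scaling, where they were -0.02 and -0.08. Cdh13, which encodes the adiponectin-binding T-cadherin, rose on day 4 in WAT, from 2.92 ± 0.175 to 5.48 ± 0.140 FPKM (log2 change 0.73 ± 0.10, adjusted p = 0.000113), and in BAT, from 2.25 ± 0.0324 to 3.94 ± 0.610 FPKM (log2 change 0.60 ± 0.10, adjusted p = 0.000511).

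Proteins that fold, process or work with adipokines formed a list of 9 genes, of which 6 were tested. With EGCG the numbers higher, lower and not called in WAT were 3, 1 and 2 on day 4 and 2, 4 and 0 on day 8. In BAT they were 1, 4 and 1 on day 4 and 2, 4 and 0 on day 8 (median log2 changes 0.12, -0.56, -0.44 and -1.87). In WAT on day 4, 2 rather than 3 were higher with median-ratio scaling, and the median log2 change was -0.0038. C3, the complement component on which the factor D pathway acts, had the lowest change of the called genes in all 4 contrasts. It went from 84.7 ± 4.63 to 21.0 ± 1.96 FPKM (log2 change -1.96 ± 0.14, adjusted p = 5.18e-07) in WAT on day 4 and from 706 ± 158 to 11.95 ± 0.469 FPKM (log2 change -5.75 ± 0.14, adjusted p = 4.37e-11) on day 8. In BAT it went from 156 ± 14.8 to 30.1 ± 5.55 FPKM (log2 change -2.34 ± 0.14, adjusted p = 1.33e-07) on day 4 and from 402 ± 8.65 to 5.40 ± 0.204 FPKM (log2 change -5.98 ± 0.14, adjusted p = 1.95e-11) on day 8. Ero1l, an oxidase of the endoplasmic reticulum that takes part in adiponectin assembly, had the highest change in WAT on day 4, from 67.9 ± 2.80 to 139 ± 1.05 FPKM (log2 change 1.02 ± 0.08, adjusted p = 7.42e-07).

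Around Nampt, 7 genes of NAD metabolism were listed and all were tested. With EGCG the numbers higher, lower and not called in WAT were 3, 1 and 3 on day 4 and 1, 4 and 2 on day 8. In BAT they were 1, 3 and 3 on day 4 and 1, 5 and 1 on day 8 (median log2 changes 0.29, -0.25, -0.20 and -0.54). In WAT on day 4, 1 rather than 3 were higher with median-ratio or quantile scaling. Nmnat2, which makes NAD from the product of Nampt, had the highest change in every contrast, for example from 3.17 ± 0.133 to 9.45 ± 0.567 FPKM (log2 change 1.32 ± 0.08, adjusted p = 1.47e-07) in WAT on day 4. Nnmt, which methylates nicotinamide, had the lowest change in WAT on day 4 and in BAT on both days, where it went from 170.4 ± 12.5 to 57.4 ± 6.35 FPKM (log2 change -1.56 ± 0.08, adjusted p = 2.98e-08) on day 4. Nadsyn1, an NAD synthetase, had the lowest change in WAT on day 8, from 3.03 ± 0.249 to 1.72 ± 0.0687 FPKM (log2 change -0.57 ± 0.09, adjusted p = 0.000127).

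All 6 adipogenic transcription factors listed were tested. With EGCG the numbers higher, lower and not called in WAT were 2, 4 and 0 on day 4 and 0, 5 and 1 on day 8. In BAT they were 2, 4 and 0 on day 4 and 0, 6 and 0 on day 8 (median log2 changes -0.96, -0.89, -1.24 and -1.50). Cebpa, which encodes C/EBPα, had the lowest change in WAT, from 133 ± 12.8 to 26.3 ± 1.02 FPKM (log2 change -2.29 ± 0.10, adjusted p = 9.41e-09) on day 4 and from 127 ± 14.6 to 18.7 ± 1.50 FPKM (log2 change -2.69 ± 0.10, adjusted p = 1.41e-09) on day 8. In BAT the lowest change was that of Srebf1, a regulator of lipid synthesis, on day 4, from 117 ± 11.2 to 33.2 ± 0.0937 FPKM (log2 change -1.78 ± 0.08, adjusted p = 1.1e-08), and that of Pparg on day 8, from 138 ± 1.71 to 11.2 ± 0.147 FPKM (log2 change -3.51 ± 0.11, adjusted p = 9.37e-11). Cebpb, an early factor of the adipogenic cascade, had the highest change on day 4, from 89.9 ± 10.3 to 156 ± 15.9 FPKM (log2 change 0.79 ± 0.10, adjusted p = 3.43e-05) in WAT and from 97.0 ± 2.93 to 143 ± 6.15 FPKM (log2 change 0.56 ± 0.10, adjusted p = 0.000484) in BAT. Rxra, the partner of PPARγ, had the smallest fall of the called genes on day 8, from 26.3 ± 2.87 to 19.1 ± 0.112 FPKM (log2 change -0.43 ± 0.06, adjusted p = 8.04e-05) in WAT and from 26.9 ± 1.28 to 21.3 ± 0.0797 FPKM (log2 change -0.32 ± 0.06, adjusted p = 0.00058) in BAT.

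Among 16 other secreted factors of adipose tissue 10 were tested. With EGCG the numbers higher, lower and not called in WAT were 3, 2 and 5 on day 4 and 2, 3 and 5 on day 8. In BAT they were 4, 3 and 3 on day 4 and 3, 4 and 3 on day 8 (median log2 changes 0.10, -0.23, -0.03 and -0.28). With median-ratio scaling the numbers higher and lower in WAT were 2 and 3 on day 4, where Il6 lost and Ccl2 gained a call, and 2 and 5 on day 8, where Nrg4 and Vegfa were also called lower. Il6, an inflammatory cytokine, had the highest change in BAT on day 8, from 1.93 ± 0.738 to 17.7 ± 0.123 FPKM (log2 change 2.70 ± 0.20, adjusted p = 1.71e-07). Lcn2, a carrier of iron-binding siderophores, had the lowest change in WAT on day 8, from 41.2 ± 0.416 to 8.60 ± 2.55 FPKM (log2 change -2.16 ± 0.22, adjusted p = 5.09e-06), and in BAT on day 8, from 125 ± 3.87 to 3.17 ± 0.675 FPKM (log2 change -4.92 ± 0.22, adjusted p = 2.44e-09). Fgf21, a metabolic hormone, had the lowest change in WAT on day 4, from 6.53 ± 1.11 to 2.55 ± 0.705 FPKM (log2 change -1.09 ± 0.26, adjusted p = 0.00399). Of 9 genes of the C1q/TNF family, the relatives of adiponectin, 6 were tested. With EGCG the numbers higher, lower and not called in WAT were 1, 2 and 3 on day 4 and 1, 5 and 0 on day 8. In BAT they were 1, 1 and 4 on day 4 and 1, 3 and 2 on day 8 (median log2 changes 0.06, -0.70, -0.14 and -0.27). Fam132a (C1qtnf12) had the lowest change in all 4 contrasts, for example from 63.1 ± 5.39 to 15.1 ± 1.03 FPKM (log2 change -1.99 ± 0.10, adjusted p = 6.27e-09) in BAT on day 8, and C1qtnf2 the highest on day 8, from 1.55 ± 0.299 to 5.99 ± 0.584 FPKM (log2 change 1.46 ± 0.12, adjusted p = 6.54e-07) in WAT and from 1.59 ± 0.184 to 6.53 ± 0.385 FPKM (log2 change 1.54 ± 0.12, adjusted p = 2e-07) in BAT.

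**Figure D4:**
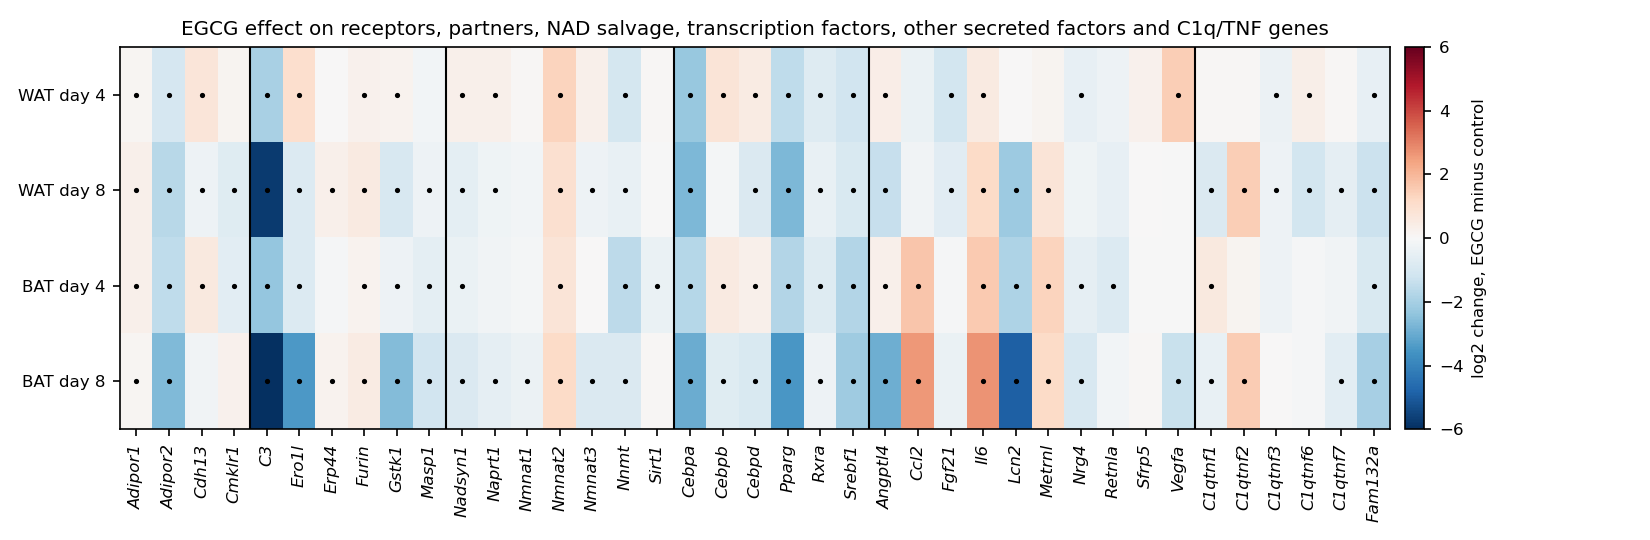
Log2 change with EGCG, as colour from blue (lower) to red (higher), of 39 tested genes related to the adipokines in 4 contrasts (rows); black lines separate receptors, partners and processing, NAD salvage, transcription factors, other secreted factors and the C1q/TNF family, and dots mark genes called at an adjusted p of 0.05. C3 is the most strongly lowered gene on day 8, whereas Nmnat2 is red in all 4 rows.

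The genes whose levels followed each adipokine most closely were taken by Pearson's r of log2(FPKM + 1) over the 16 libraries of replicates 1 and 2. These libraries share the large differences between groups, so the values are a description. Plin1 encodes a coat protein of lipid droplets, Thrsp a regulator of lipid synthesis, Aldh2 an aldehyde dehydrogenase and Adora1 an adenosine receptor. For Adipoq they were Plin1 (r = 0.983) and Smoc1 (r = 0.971), and for Lep Vnn3 (r = 0.992) and Adora1 (r = 0.991). Cfd was followed by Thrsp (r = 0.996) and Sort1 (r = 0.987), Retn by Cyp2f2 (r = 0.986) and Sorl1 (r = 0.984) and Rbp4 by Lgals4 (r = 0.983) and Aldh2 (r = 0.982). For Nampt they were N4bp2l1 (r = 0.977) and Klf13 (r = 0.977), for Rarres2 Selenbp1 (r = 0.973) and H2-Q10 (r = 0.960) and for Apln Diablo (r = 0.958) and Zfp661 (r = 0.937). Among the 8 genes themselves the closest pair was Cfd and Retn (r = 0.96), and Apln had r between -0.30 and 0.11 with the other 7.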

How the data were processed

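RNA of cultured mouse fat cells was sequenced in 24 libraries, 3 in each of 8 groups taken from the labels. The authors deposited FPKM values in 2 tables of 37310 genes each, replicates 1 and 2 in the first and replicate 3 in the second. The submitters' processing notes name FastQC 0.11.9, HISAT2 2.2.0, HTSeq 0.11 and build mm9, without their roles, and whether counting used the strand is not given in the sources used here. Symbols and coordinates came from GENCODE vM1 (NCBIM37), whose longest transcripts gave all 37310 gene lengths. FPKM times length gave whole reads for 100% of values (tolerance 0.01 reads), with 39452696 to 52893848 reads in replicates 1 and 2 and 16392420 to 41675643 in replicate 3. A floor of 3 reads was taken, and floors and intervals cover counting error only.

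A gene was tested when FPKM reached 1 in at least 2 of 16 libraries (14095 genes). The values log2(FPKM + 1) of replicates 1 and 2 of the 16 libraries were modelled by limma 3.58.1 in R 4.3.3 (a mean for each group, eBayes with a trend). The residual degrees of freedom were 8, or 11.4 after moderation. All p-values are two-sided, with Benjamini-Hochberg adjustment within each of 16 contrasts and a threshold of 0.05. Contrasts share groups, so their values are given side by side only. The fit was tested on simulated data with the same setting of spread in all groups, which cannot check the use of 1 shared spread. Lep ratios used recovered reads with exact binomial intervals. Named genes besides the 8 are the called genes with the highest or lowest change of each list, markers, and the 2 most alike genes by correlation. The 8 genes, the lists and the rules were chosen with earlier results of these data known, and some list genes are not reported here.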

Additional observations from a re-analysis of the deposited data

Results flagged for a closer look

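The effect of EGCG differed between the depots or between the days, by the interaction term of the limma fit, in the following cases, given as differences of log2 changes on the log2(FPKM + 1) scale. On day 4 the effect in BAT minus that in WAT was 2.13 for Adipoq, 1.38 for Cfd, -0.69 for Retn, -0.69 for Rbp4, -2.33 for Rarres2 and -1.999 for Apln. On day 8 it was 2.75 for Adipoq, -0.93 for Lep, 1.41 for Cfd, 0.61 for Retn, -1.96 for Rbp4, -1.66 for Nampt, -2.24 for Rarres2 and -0.98 for Apln, where the sign for Lep reverses with a smaller pseudocount. The effect on day 8 minus that on day 4 was, in WAT, -1.79 for Adipoq, -3.93 for Lep, -4.03 for Cfd, -4.88 for Retn, -4.05 for Rbp4, -1.35 for Nampt, -5.14 for Rarres2 and -1.66 for Apln. In BAT it was -1.17 for Adipoq, -4.94 for Lep, -4.00 for Cfd, -3.57 for Retn, -5.33 for Rbp4, -2.32 for Nampt, -5.05 for Rarres2 and -0.64 for Apln. Rarres2 was called higher with EGCG in WAT on day 4 and lower in the other 3 EGCG contrasts. No group held enough libraries for a search for single outlying values.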

How the results depend on the processing

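The alternatives were a pseudocount of 0.1, no filter on low values, median-ratio and quantile scaling, the replicate number as a block, voom on recovered reads and each of the 16 libraries left out in turn, a lone library being taken to vary like the other groups. The number of adipokine genes called stayed within 1.5 times the reported number for each of the 16 contrasts under each of these, and under leave-one-out it ranged from 7 to 7 (WAT day 4), 7 to 8 (WAT day 8), 6 to 7 (BAT day 4) and 8 to 8 (BAT day 8) with EGCG. Rescaling WAT day 8 EGCG replicate 3 raised the genes with the same direction in replicate 3 from 5 to 8 for BAT against WAT in day 8 EGCG. Of 768 log2 changes recomputed without leaving out libraries 735 kept direction and side of the threshold, 16 lost and 11 gained a call and 6 reversed. The reversals were Lep between depots in day 4 controls (0.00587 as reported, -0.0481 with median-ratio and -0.0386 with quantile scaling), Nampt in the same comparison (0.0166, -0.146 and -0.0642), both far from the threshold, and the Lep effect in BAT minus WAT on day 8 (-0.934, 0.723 with a pseudocount of 0.1 and 3.79 with voom). Values that reversed on leaving out a library ranged over -0.123 to 0.0585 (Nampt, EGCG in WAT day 4), -0.273 to 0.0568 (Apln, EGCG in BAT day 4) and, between depots, -0.0229 to 0.0346 (Lep, day 4 controls), -0.0739 to 0.107 (Nampt, day 4 controls), -0.112 to 0.0254 (Rarres2, day 4 controls) and -0.149 to 0.352 (Retn, day 8 controls). The cause was not tested. Same-numbered libraries did not deviate together (r from -0.079 to 0.081 over 28 group pairs). This check cannot show whether same-numbered cultures shared an isolation of cells, which the labels do not give. With the replicate block 7, 7, 7 and 8 genes were called with EGCG (WAT day 4, WAT day 8, BAT day 4 and BAT day 8). No call of these genes changed in any contrast. Voom called 4907 genes higher and 2755 lower in WAT day 4, 6306 and 2657 in WAT day 8, 4051 and 2950 in BAT day 4 and 6549 and 3689 in BAT day 8. The percentage of calls that were upward moved by over 10 points with median-ratio scaling from 64.1 to 44.7 (EGCG in WAT day 4), 70.3 to 51.2 (EGCG in WAT day 8), 64.0 to 51.8 (EGCG in BAT day 8), 41.5 to 53.3 (day 8 vs day 4, BAT control), 74.3 to 51.5 (BAT vs WAT, day 4 control), 67.6 to 56.9 (BAT vs WAT, day 4 EGCG), 42.7 to 61.5 (the EGCG effect in BAT minus WAT, day 4) and 62.8 to 49.3 (the EGCG effect on day 8 minus day 4, BAT), and with quantile scaling from 64.1 to 52.4 (EGCG in WAT day 4), 74.3 to 54.5 (BAT vs WAT, day 4 control), 59.0 to 48.9 (BAT vs WAT, day 8 control), 67.6 to 51.0 (BAT vs WAT, day 4 EGCG) and 63.6 to 53.1 (BAT vs WAT, day 8 EGCG). Depth limits chiefly Lep, which fell under 3 reads in the WAT EGCG libraries.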
